A study of Mus musculus with 32 samples.

Results

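The 40 interferon-stimulated genes described here are the genes that cells switch on after they sense interferon, chosen by name from among the 34821 gene names on the array. They were measured by 55 probes: 26 genes had 1 probe, 13 had 2 and Sp110 had 3. Every probe of every gene was kept, and 53 of the 55 stood above the local background in all 24 liver cell samples. Total RNA was hybridised to 16 two-colour Agilent mouse arrays, and each colour channel was treated as a sample, which gave 32 samples in 8 groups of 4. Balb/c male mice of 6 to 8 weeks received C26 colon carcinoma cells, a syngeneic mouse colorectal cancer (CRC) line, into the spleen, and control mice received PBS. On day 14 endothelial (E), Ito (I, hepatic stellate) and Kupffer (K, liver macrophage) cells were isolated with collagenase, density gradients and adherence, and were cultured for at most 24 h. The control cells (EC, IC, KC) came from the PBS mice and the tumor microenvironment (TME) cells (ET, IT, KT) from the livers that carried metastases. The remaining groups were the tumor liver metastasis (TM) and the CRC primary tumor (TP), for which the isolation is not given in the sources used here. All mice were thus of 1 strain and sex, all liver cells had passed through isolation and culture, and all tumors came from 1 cell line. The arrays asked which genes differ between control and TME cells of each type, and TP was set against TM as the groups allow.

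Interferons are secreted alarm signals. A cell that detects viral or other misplaced nucleic acid makes type I interferon, which binds the receptor Ifnar1/Ifnar2 on the same and on neighboring cells, and the kinases Jak1 and Tyk2 then pass the signal to transcription factors, Stat2 and Irf9 among them, that enter the nucleus. A complex of them binds a short DNA element, the interferon-stimulated response element, whose core repeats the letters GAAA, and so switches on a large set of antiviral genes. Type II interferon (Ifng), made mostly by T and NK cells, acts through its own receptor on a partly shared set. In the liver, macrophages and sinusoidal endothelial cells meet microbial products from the gut and are known for a strong capacity for such responses.

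Some samples stood apart or went against their labels, and each result below is read with that in view. On the fourth array of the Ito cells the sample labelled TME looked like the control samples and the sample labelled control looked like the TME samples: Ifng measured 2.78, 1.91, 2.11 and 9.16 in IC replicates 1 to 4 and 8.94, 6.73, 8.66 and 2.43 in IT (all levels here are log2 of the deposited intensity). The mean over 11 T and NK cell probes was 7.56 in the sample labelled IC replicate 4 against 4.29 to 4.91 in IC replicates 1 to 3, and 5.11 in the sample labelled IT replicate 4 against 7.31 to 7.65 in the other IT samples. The fourth Kupffer array did the same, with Ifng at 2.85, 2.18, 5.88 and 7.01 in KC and 6.66, 6.74, 6.77 and 2.33 in KT. Over the 17104 probes above background in all 32 samples, the TME minus control differences on the fourth array correlated with the mean of the other arrays at -0.66 in Ito and -0.60 in Kupffer cells, against 0.19 to 0.28 and 0.41 to 0.47 for those other arrays. The labels were kept, and results that rest on these samples are also given without them, an alternative chosen after seeing the data. The endothelial control samples 1 and 4 differed by a median of 0.0593 over the 179 probes spotted 10 times per array, and samples 2 and 3 by 0.0465. Both values were below the spread of the repeated spots within those arrays (0.0569 to 0.067), so each pair was counted as 1 sample wherever a mean and SD of EC are drawn, and the tests against EC are given with the pairs averaged as well. Other pairs came close without lying below the spread of both arrays. IC replicates 2 and 3 differed by 0.0758 (spots 0.0566 and 0.079). KT replicates 2 and 3 differed by 0.0899 (0.0723 and 0.0957), and KT replicates 1 and 2 by 0.0815 (0.0779 and 0.0723). These were kept as separate samples. KC replicate 3 and IT replicate 2 also stood apart: the mean of 13 macrophage probes was 11.89 in KC replicate 3 against 12.96 to 13.71 in the other KC samples, and 10.55 in IT replicate 2 against 12.24 to 13.19.

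The dye and the slide followed the groups. Control and TM samples were labelled with Cy3 and TME and TP samples with Cy5 on every array. A TME difference and a dye difference therefore cannot be told apart, and neither can a TP minus TM difference and a dye difference. The Kupffer and tumor arrays lay on another slide than the endothelial and Ito arrays. The marker genes of the labelled cells gave a mixed picture. All 13 macrophage probes were above background in every liver cell sample, with group ranges of the mean from 10.45 to 10.80 in EC up to 11.89 to 13.71 in KC. The stellate markers were no higher in the Ito samples (6.11 to 6.48 in IC) than in the endothelial ones (7.25 to 7.79 in EC). Of the 11 stellate probes, 9 to 10 were above background in the IC samples, 8 to 9 in IT and 9 to 11 in EC. Among them Lrat, the vitamin A storing enzyme of stellate cells, was above background in 2 of 4 IC samples and 0 of 4 IT samples. In the tumor samples at most 3 probes of the endothelial, hepatocyte or erythroid lists were above background. The Kupffer genes Clec4f and Timd4 were above background in 0 of 8 samples, and 6 to 10 of the 13 macrophage probes in TM and 4 to 9 in TP. The epithelial gene Epcam was above background in 0 of 8, and 1 to 4 of the 7 epithelial probes in TM and 2 to 3 in TP. In such bulk samples, fewer cells of a type and less RNA per cell cannot be told apart.

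Across the 8 groups the interferon-stimulated genes formed 2 blocks. The mean over the 55 probes lay between 13.76 and 14.65 in each of the 24 liver cell samples and between 9.69 and 11.18 in the 8 tumor samples, with no overlap. The group means were 14.06 ± 0.20 (SD, n = 4) in ET, 14.36 ± 0.14 in IC, 14.38 ± 0.24 in IT, 14.52 ± 0.22 in KC and 14.60 ± 0.02 in KT, and the EC samples lay at 14.52, 14.12, 14.04 and 14.52. The tumor groups measured 10.30 ± 0.65 in TM and 9.93 ± 0.24 in TP. The heat map of all probes shows the same step at the border of the tumor columns in nearly every row, with the Ifitm1 rows running the other way.

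**Figure D1:**
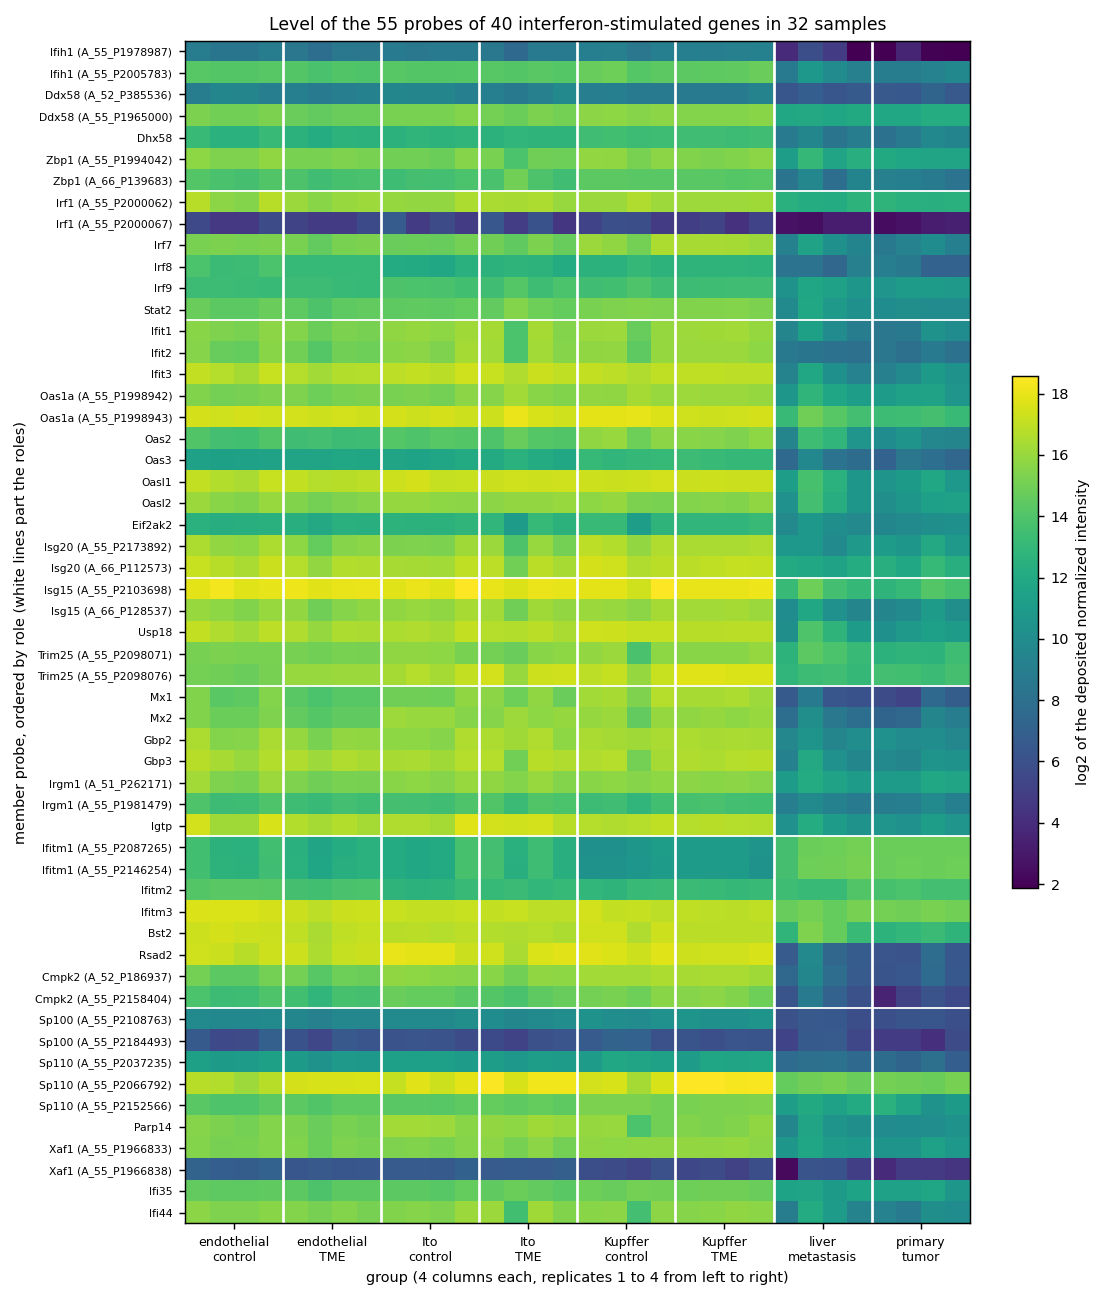
Level of each of the 55 probes of the 40 interferon-stimulated genes (rows, ordered by role, parted by white lines) in the 32 samples (columns, 4 per group, replicates 1 to 4 from left to right). Color is log2 of the deposited normalized intensity. Most rows drop in the 8 tumor columns, the Ifitm1 rows are brightest there, and Ifitm2 has nearly one color throughout.

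The tumor samples were set against the Kupffer samples that shared their dye and slide, TM against KC and TP against KT. In TM, 50 of the 55 probes were down-regulated and 2 up-regulated relative to KC (limma, adjusted p below 0.05, here and in every call below), where 16.2% of all 55681 probes were lower and 23.3% higher. In TP, 51 were down-regulated and 3 up-regulated relative to KT, against 17.8% and 25.7% of all probes. The median difference over the 55 probes was -4.36 in TM minus KC and -4.65 in TP minus KT on the log2 scale, and over all probes 0.08 and 0.10. Without the fourth Ito and Kupffer arrays 51 were lower and 3 higher in each comparison, against 16.1% and 22.1% of all probes in TM minus KC and 17.5% and 24.1% in TP minus KT. The macrophage markers moved with this difference, from 11.89 to 13.71 in KC and 13.07 to 13.59 in KT to 5.24 to 7.17 in TM and 5.47 to 6.87 in TP, and 4 to 10 of the 13 probes were still above background in the tumor samples. Their part in the result was not tested.

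The widest gap belonged to Rsad2 (viperin), an antiviral enzyme that makes a chain-terminating nucleotide, and its probe lies at chr12:27127859-27127918 of mm9, minus strand. Rsad2 measured 17.79, 17.61, 17.30 and 17.78 in KC, 17.30, 17.35, 17.38 and 17.55 in KT, 6.67, 9.72, 7.35 and 6.74 in TM and 6.25, 6.16, 7.84 and 6.42 in TP. The liver cell and tumor samples did not overlap, and TM replicate 2 was the highest of the tumor samples. The difference was -10.00 (SE 0.45, 1024-fold, adjusted p = 4.54e-16) in TM minus KC and -10.73 (SE 0.45, 1693-fold, adjusted p = 1.08e-16) in TP minus KT. Cmpk2, a mitochondrial nucleotide kinase encoded next to Rsad2 on chromosome 12, followed with differences of -8.44 and -9.66 at probe A_52_P186937. That probe read 16.26, 16.24, 16.23 and 16.49 in KC, 16.38, 16.43, 16.46 and 16.21 in KT, 7.44, 9.54, 7.87 and 6.64 in TM and 6.23, 6.42, 7.72 and 6.49 in TP. The other Cmpk2 probe differed by -8.19 and -10.28, with 1 of the 4 TP samples above background. Mx1, a dynamin-like GTPase against influenza-type viruses, of which Balb/c and most inbred strains carry a defective allele, measured 16.26, 16.37, 15.31 and 16.69 in KC and 6.60, 8.71, 6.33 and 6.11 in TM. In KT it measured 16.41, 16.37, 16.49 and 16.10 and in TP 5.78, 5.29, 7.57 and 6.80. The samples again formed 2 separate sets, and the differences were -9.22 (SE 0.47, 594.8-fold, adjusted p = 6.7e-15) and -9.98 (SE 0.47, 1012-fold, adjusted p = 1.21e-15).

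The fall ran through every role. The 7 probes of GTPases had median differences of -5.93 (TM minus KC) and -6.44 (TP minus KT), with Mx2 at -7.00 and -7.59 and Gbp2, which attacks the vacuoles of intracellular microbes, at -6.46 and -6.44. The 12 probes of RNA-binding and 2-5A effectors had medians of -4.94 and -5.35. Among them the RNA-binding proteins Ifit2 and Ifit3 fell by 7.21 and 6.68 in TM, while Eif2ak2, the kinase PKR that halts translation, fell by 2.43. The 7 probes of nucleic acid sensors had medians of -4.52 and -4.45, the 5 probes of the ISG15 system -4.23 and -4.65, the 6 probes of transcription factors -4.16 and -4.19 and the 10 probes of nuclear body and other genes -3.61 and -3.97. Irf7, the factor that amplifies type I interferon production, fell by 5.79 in TM and 7.05 in TP, and Irf9, the DNA-binding partner of Stat2, by 2.55 and 2.50. The 8 probes of membrane and metabolic effectors had the medians closest to 0, -2.70 and -2.89, and the Ifitm genes among them took another course. Probes near background gave only bounds: for Irf1 probe A_55_P2000067 KC was at least 1.3-fold higher than TM and KT at least 1.03-fold higher than TP, and for Ifih1 probe A_55_P1978987 KT was at least 8.45-fold higher than TP. Sp100 probe A_55_P2184493, KT over TP, was at least 1.26-fold, and it missed the threshold in TM minus KC (-0.78, adjusted p = 0.0948). Xaf1 probe A_55_P1966838 missed it in both comparisons, at -0.88 in TM minus KC (adjusted p = 0.155) and at least 1.2-fold, KT over TP (adjusted p = 0.0623).

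**Figure D2:**
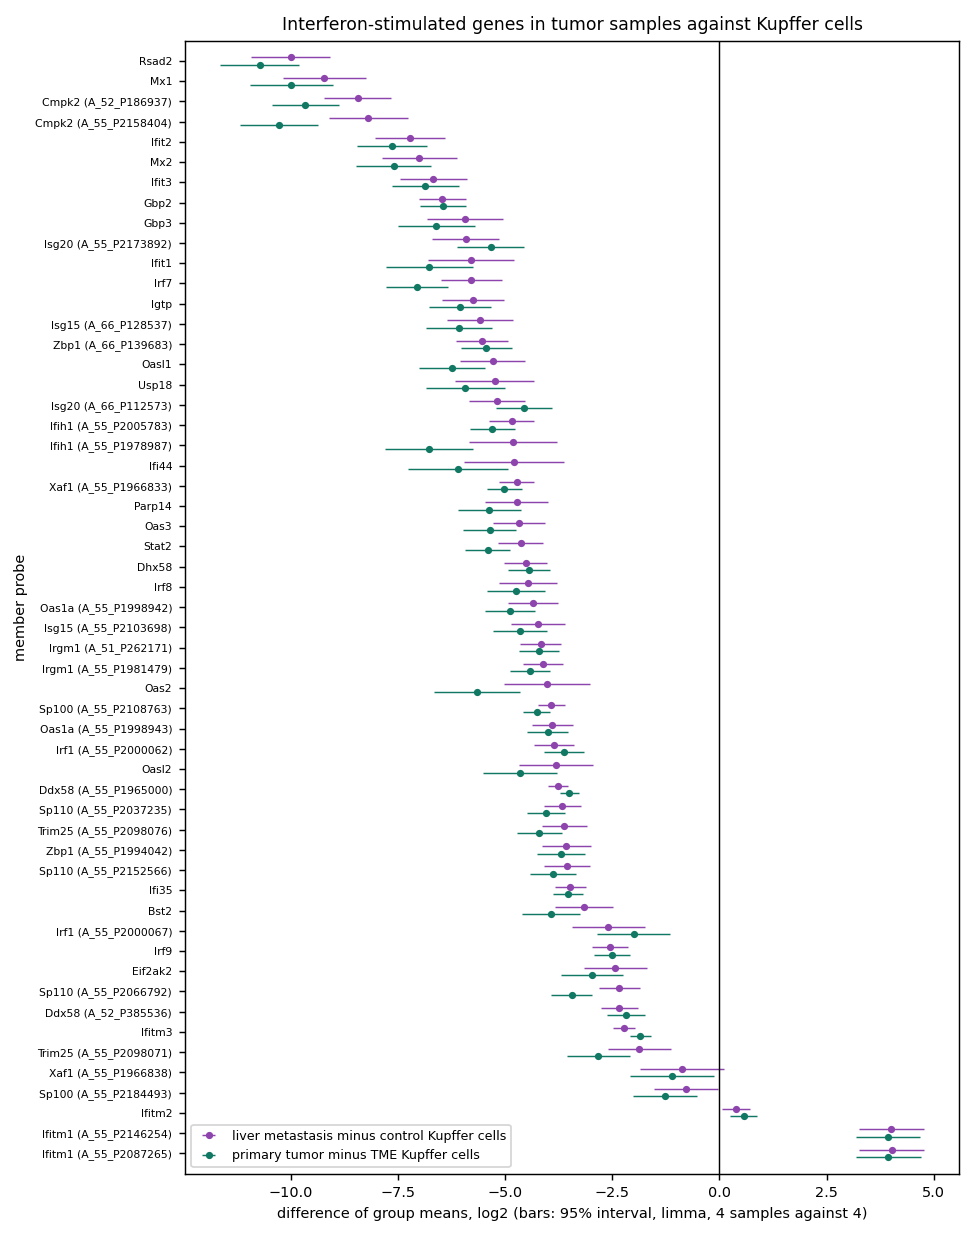
Difference of group means on the log2 scale (x axis) for each of the 55 probes (rows, sorted by TM minus KC), with 95% intervals from limma, 4 samples against 4. Purple is TM minus KC and green TP minus KT. Rsad2 stands at -10.00 and -10.73 at the top, and the Ifitm1 probes stand at 4.01 and 3.93 on the other side of 0. The probes given above as bounds are drawn at their fitted values, which are not measured sizes.

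Ifitm1, Ifitm2 and Ifitm3 are small membrane proteins that hinder the fusion of viruses with the cell, and their genes sit together on chromosome 7. Ifitm1 probe A_55_P2087265 measured 13.63, 14.79, 14.89 and 15.09 in TM and 14.81, 14.82, 14.85 and 14.85 in TP, against 10.25, 10.27, 10.68 and 11.15 in KC and 11.02, 11.03, 11.03 and 10.50 in KT. Every tumor sample lay above every Kupffer sample. Ifitm1 was up-regulated by 4.01 (SE 0.37, adjusted p = 6.61e-10) in TM and by 3.93 (SE 0.37, adjusted p = 8.35e-10) in TP, and its probe A_55_P2146254 gave 4.01 and 3.93. These 2 probes share a run of 54 bases and are not independent readings of Ifitm1. The design places A_55_P2146254 at chr7:148155659-148155718 (mm9, plus strand) and A_55_P2087265 at chr8:13896764-13896823. Ifitm2 measured 13.38, 13.20, 13.14 and 14.02 in TM, 13.70, 13.87, 13.58 and 13.56 in TP, 12.96, 12.76, 13.19 and 13.28 in KC and 13.25, 13.14, 12.97 and 13.10 in KT. The TM and KC samples overlapped (0.39, SE 0.16, adjusted p = 0.0528), and the TP samples lay above all KT samples (0.56, SE 0.16, adjusted p = 0.00451). Ifitm3 fell, at 14.70, 15.07, 14.61 and 15.17 in TM against 17.44, 17.02, 17.10 and 16.89 in KC (-2.23, SE 0.12, adjusted p = 2.54e-14), and by 1.85 in TP. Neighboring genes of 1 family thus stood above, near and below the Kupffer level in the same tumor samples.

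**Figure D3:**
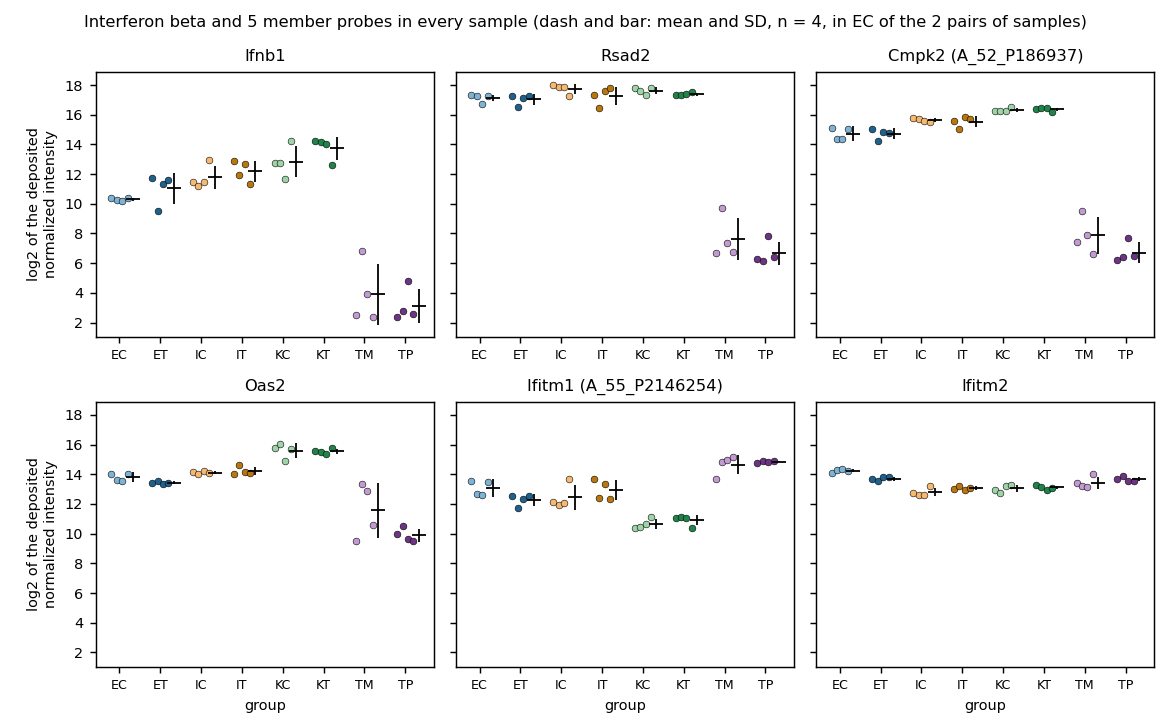
Level (y axis, log2 of the deposited normalized intensity) of interferon beta (Ifnb1) and 5 probes of interferon-stimulated genes in each sample, by group (x axis). Points are samples, dashes and bars the mean and SD (n = 4; in EC of the 2 averaged pairs). Ifnb1, Rsad2 and Cmpk2 are low in TM and TP only, Oas2 spreads from 9.47 to 13.36 in TM, the Ifitm1 means are highest in TM and TP, and Ifitm2 spans less than the others.

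The promoters of these genes were searched for the response element. RefSeq promoters (GRCm38.p6, the 250 bases before a start) were found for 33 of the 40 genes, 42 promoters in all, and not for Mx1, Mx2, Oas2, Usp18, Dhx58, Zbp1 and Parp14. The element was searched as GAAANNGAAA on either strand, overlapping matches counted. It stood in 13 of the 42 promoters (31%), those of Ifit1, Ifit3, Isg15, Oas1a, Oas3, Stat2, Rsad2, Gbp2, Gbp3, Ifitm2, Bst2, Irgm1 and Igtp, and in 978 of all 32851 promoters (2.98%). A match is a string of letters and not a measured binding site, and a window without one may hold a variant of the element. Isg15 is shown as the classic target with 3 overlapping matches, Rsad2 as the gene with the widest gap, and Ifitm2 and Ifitm1 as neighbors that moved apart. The sequences run 5′ to 3′ toward the start, with matches in capitals (a match on the reverse strand reads as its reverse complement).
Isg15 (chr4:156200819-156201068, minus strand): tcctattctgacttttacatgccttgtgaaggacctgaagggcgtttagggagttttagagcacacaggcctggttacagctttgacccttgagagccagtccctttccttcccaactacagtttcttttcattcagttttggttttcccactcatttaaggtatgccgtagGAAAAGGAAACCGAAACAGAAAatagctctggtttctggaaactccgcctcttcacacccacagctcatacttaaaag
Rsad2 (chr12:26456453-26456702, minus strand): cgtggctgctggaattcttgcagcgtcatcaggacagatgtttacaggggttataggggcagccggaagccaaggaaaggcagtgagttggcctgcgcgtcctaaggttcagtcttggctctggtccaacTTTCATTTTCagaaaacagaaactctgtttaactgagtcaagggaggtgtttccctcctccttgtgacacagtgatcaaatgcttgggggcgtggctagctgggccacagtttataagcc
Ifitm2 (chr7:140955962-140956211, minus strand): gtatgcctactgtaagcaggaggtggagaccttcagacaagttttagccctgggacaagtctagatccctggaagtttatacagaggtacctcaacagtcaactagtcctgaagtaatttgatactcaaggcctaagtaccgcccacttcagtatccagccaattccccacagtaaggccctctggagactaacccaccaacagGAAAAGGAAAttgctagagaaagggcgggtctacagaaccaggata
Ifitm1 (chr7:140967826-140968075, plus strand): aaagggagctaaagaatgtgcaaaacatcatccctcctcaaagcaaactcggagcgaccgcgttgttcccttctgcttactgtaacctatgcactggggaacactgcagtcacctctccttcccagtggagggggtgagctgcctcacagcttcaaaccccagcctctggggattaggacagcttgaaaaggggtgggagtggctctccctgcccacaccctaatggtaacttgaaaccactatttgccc

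The element thus stood in the window of Ifitm2, whose level differed least between tumor and Kupffer samples, and in that of Rsad2, whose level differed most. The Cmpk2, Irf7 and Ifit2 windows held no match, and these genes fell by 8.44, 5.79 and 7.21 in TM.

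Between the tumor groups, TP minus TM, the 55 probes had a median difference of -0.27, against -0.01 for all probes, and 39 lay below 0. Down-regulation in TP was called for 2 probes and up-regulation for 0, with 12 and 0 at an unadjusted p below 0.05, against 0.961% and 2.05% of all probes called. The methods' t-test called 0. Cmpk2 probe A_55_P2158404 measured 6.20, 8.67, 7.10 and 6.04 in TM and 3.56, 5.19, 6.12 and 5.57 in TP, where 1 of the 4 samples was above background, with overlapping groups (-1.89, SE 0.45, adjusted p = 0.0171, exact permutation p = 0.0571). Ifih1 probe A_55_P1978987, one of 2 probes of the sensor of long double-stranded RNA, measured 3.90, 5.90, 4.86 and 1.87 in TM and 1.91, 3.57, 1.98 and 1.89 in TP. It was above background in 2 of the 4 TM samples and 0 of the TP samples, so that no size is given for its difference (adjusted p = 0.0447). Oas2, a synthetase of the 2-5A messenger that activates RNase L, measured 9.47, 13.36, 12.88 and 10.56 in TM and 9.999, 10.49, 9.63 and 9.49 in TP (-1.67, SE 0.49, adjusted p = 0.061). The TM samples were thus far apart among themselves, and replicates 2 and 3 carried the high readings.

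The largest rises were below the threshold: Isg20, a 3′-5′ exoribonuclease, read 10.80, 10.77, 9.88 and 10.88 in TM and 11.02, 10.69, 11.95 and 10.88 in TP at probe A_55_P2173892 (0.55, SE 0.38, adjusted p = 0.517). Its probe A_66_P112573 read 12.05, 11.84, 11.48 and 12.19 in TM and 12.44, 11.88, 13.05 and 12.33 in TP (0.54, SE 0.32, adjusted p = 0.429). TM replicate 2 stood apart across the genes. Its mean over the 55 probes was 11.18, against 9.69, 10.37 and 9.95 in the other TM samples, and on its array the median TP minus TM difference was -1.24, against -0.04 to 0.08 on the others. Ifnb1 moved with it, at 6.79 in TM replicate 2 against 2.52, 3.91 and 2.39, while its macrophage marker mean of 5.37 lay within the range of the others (5.24 to 7.17). Without replicate 2 the median over the 55 probes was 0.06 and no probe was called in TP minus TM, and without replicate 3 none was called either.

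The control cells of the liver were compared with each other. In KC, 8 probes were higher and 4 lower than in EC, where 8.95% and 12.1% of all probes were, and the median difference over the 55 was 0.34 (0.19 without replicate 2). Oas2 measured 15.77, 16.02, 14.91 and 15.68 in KC, 14.02, 13.59, 13.54 and 14.05 in EC and 14.15, 13.995, 14.23 and 14.10 in IC. KC lay above all samples of the other types, by 1.80 over EC (SE 0.49, adjusted p = 0.00852) and by 1.48 over IC (SE 0.49, adjusted p = 0.0418). Oas3, which makes 2-5A when it binds long double-stranded RNA, measured 13.06, 12.83, 12.97 and 13.07 in KC, 11.41, 11.35, 11.43 and 11.50 in EC and 11.65, 11.58, 11.66 and 12.07 in IC. It was higher in KC by 1.56 over EC (SE 0.30, adjusted p = 0.000303) and by 1.24 over IC (SE 0.30, adjusted p = 0.00431). Cmpk2 probe A_52_P186937 read 15.11, 14.38, 14.37 and 15.06 in EC and 15.80, 15.73, 15.61 and 15.52 in IC, so that its order was KC over IC over EC with no overlap, and KC exceeded EC by 1.58 (SE 0.38, adjusted p = 0.00304). IC minus EC for the same probe was 0.94 (SE 0.38, adjusted p = 0.137). Stat2 was higher in KC by 0.78 over EC and 0.85 over IC, and the RNA sensor Ddx58 (RIG-I) by 0.51 and 0.37 at probe A_55_P1965000, while its probe A_52_P385536 differed by -0.375 (adjusted p = 0.25) and -0.50 (adjusted p = 0.127). Kupffer arrays lay on another slide than the endothelial and Ito arrays, so slide and cell type cannot be told apart in these comparisons.

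Ifitm1 ran the other way. It measured 10.25, 10.27, 10.68 and 11.15 in KC, 13.48, 12.58, 12.56 and 13.52 in EC and 12.13, 11.86, 12.09 and 13.73 in IC at probe A_55_P2087265. KC lay below all of them, by 2.45 against EC (SE 0.37, adjusted p = 1.89e-05) and 1.87 against IC (SE 0.37, adjusted p = 8e-04). Ifitm2 was highest in EC, at 14.12, 14.30, 14.33 and 14.20 against 12.74, 12.60, 12.64 and 13.19 in IC (-1.45, SE 0.16, adjusted p = 7.26e-07), and KC was lower than EC by 1.19 (-1.19, adjusted p = 3.3e-06). Ifitm3 was 17.66, 17.59, 17.61 and 17.51 in EC and 17.19, 17.02, 17.05 and 17.17 in IC (-0.49, SE 0.12, adjusted p = 0.00933), and KC differed from EC by -0.48. All 4 probes of Ifitm1, Ifitm2 and Ifitm3 were thus higher in endothelial than in Kupffer control cells. Xaf1 probe A_55_P1966838, of a proapoptotic protein, read 7.21, 6.83, 6.79 and 7.14 in EC, 6.70, 6.65, 6.60 and 7.05 in IC and 5.91, 5.78, 5.36 and 5.99 in KC (KC minus EC -1.23, SE 0.47, adjusted p = 0.067). Irf8, a factor of myeloid and antigen-presenting cells, measured 13.86, 13.22, 13.29 and 13.83 in EC, 12.11, 12.11, 11.90 and 12.50 in IC and 12.63, 12.51, 12.99 and 12.66 in KC. It was lower in IC than in EC (-1.39, SE 0.33, adjusted p = 0.00599).

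In IC, 2 probes were higher and 3 lower than in EC (4.17% and 5.72% of all probes), and the higher ones were the Trim25 and Sp110 probes described below. Isg20 probe A_55_P2173892 read 16.52, 15.87, 15.72 and 16.52 in EC and 15.30, 15.36, 15.27 and 16.19 in IC (-0.63, SE 0.38, adjusted p = 0.389). In KC, 8 were higher and 2 lower than in IC (7.24% and 7.57% of all probes). Irf7 was among the higher ones, at 16.09, 15.78, 15.09 and 16.52 in KC against 14.75, 14.85, 14.69 and 15.06 in IC (1.03, SE 0.35, adjusted p = 0.0454), as were Dhx58 (0.70) and Ifi35 (0.52). With the EC pairs averaged, an alternative chosen after seeing the data, 1 probe was higher and 1 lower in IC than in EC (1.93% and 2.37% of all probes). Irf8 then missed the threshold, at adjusted p = 0.0576. In KC minus EC, 5 were higher and 4 lower (5.69% and 7.3%), and Oas2 missed it at 0.0596. Without the fourth Ito and Kupffer arrays, 3 probes were higher and 2 lower in KC than in IC (7.01% and 7.05% of all probes), 2 higher and 5 lower in IC than in EC (5.13% and 6.59%) and 6 higher and 4 lower in KC than in EC (8.98% and 11.4%).

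In endothelial cells the TME comparison gave a shift that was shared by most probes and small at each. The median difference ET minus EC was -0.24 over the 55 probes and 0.01 over all probes. Of the 55, 48 lay below 0, while 28890 of all 55681 probes lay above it. On all 4 arrays 21 were lower, for which no share over all probes was computed. The median was -0.32, -0.38 and -0.37 on arrays 1, 2 and 4 and 0.09 on array 3, and without the third replicates the median over the 55 was -0.41. The sample means over the 55 probes overlapped, at 14.52, 14.12, 14.04 and 14.52 in EC and 14.19, 13.76, 14.15 and 14.16 in ET. EC replicates 1 and 4, a pair counted above as 1 sample, held the higher EC means. EC replicates 2 and 3 lay within the ET range, and ET replicate 2 was the lowest, so the shift rests on few samples. No probe was called down-regulated by limma, with 6 at an unadjusted p below 0.05, and 2 were called up-regulated, against 0.564% and 0.578% of all probes. The ET and EC samples did not overlap for 12 probes that were lower and 3 that were higher, against 6% and 7.05% of all probes. The largest fall was that of Ifitm1, at 12.48, 11.59, 12.23 and 12.52 in ET against 13.48, 12.58, 12.56 and 13.52 in EC (-0.83, SE 0.37, adjusted p = 0.543). Every ET sample was below every EC sample. Isg20 probe A_55_P2173892 read 15.76, 14.63, 15.55 and 15.68 in ET (-0.75, SE 0.38, adjusted p = 0.695), and Mx1 14.33, 13.85, 14.23 and 14.25 in ET against 15.39, 14.28, 14.41 and 15.47 in EC (-0.73, SE 0.47, adjusted p = 0.935). Ifitm2 read 13.66, 13.54, 13.79 and 13.83 in ET, below all EC samples (-0.53, SE 0.16, adjusted p = 0.124), Ifitm3 17.23, 16.92, 17.26 and 17.31 (-0.41, SE 0.12, adjusted p = 0.127) and Ddx58 probe A_55_P1965000 14.77, 14.53, 14.77 and 14.81 against 15.30, 14.99, 14.999 and 15.29 in EC (-0.43, SE 0.11, adjusted p = 0.0601).

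These 3 were the closest to the threshold on the falling side. Both quantile settings on the scanner's signals, processed and after normexp correction, called Ddx58 and Ifitm3 down-regulated, normexp with loess called Ddx58, the fit without replicate 4 called Ifitm2, the fit of the endothelial samples alone called Ifitm2 and Xaf1 probe A_55_P1966838, and the methods' t-test called Ifitm2 down-regulated and Oas3 up-regulated. For 31 of the 55 probes the 95% interval of ET minus EC lay within 2-fold, and for the others larger changes in either direction could not be seen. By role the medians were -0.44 for membrane and metabolic effectors, -0.37 for GTPases, -0.28 for sensors, -0.27 for RNA-binding and 2-5A effectors, -0.20 for transcription factors and -0.07 for the ISG15 system. Oas3 was the only gene outside the repeat probes described below whose ET samples all lay higher, at 11.64, 11.64, 11.80 and 11.74 against 11.41, 11.35, 11.43 and 11.50 in EC (0.28, SE 0.30, adjusted p = 1). Markers of other cells moved as well. The T and NK cell mean was 6.91 to 7.66 in ET and 5.88 to 6.18 in EC, the neutrophil mean 6.63 to 8.24 and 4.91 to 5.48, and the hepatocyte mean 8.58 to 8.75 and 9.69 to 9.96. Their part in the shift was not tested, and with the EC pairs averaged no probe was called in either direction, against 0.187% higher and 0.172% lower of all probes.

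**Figure D4:**
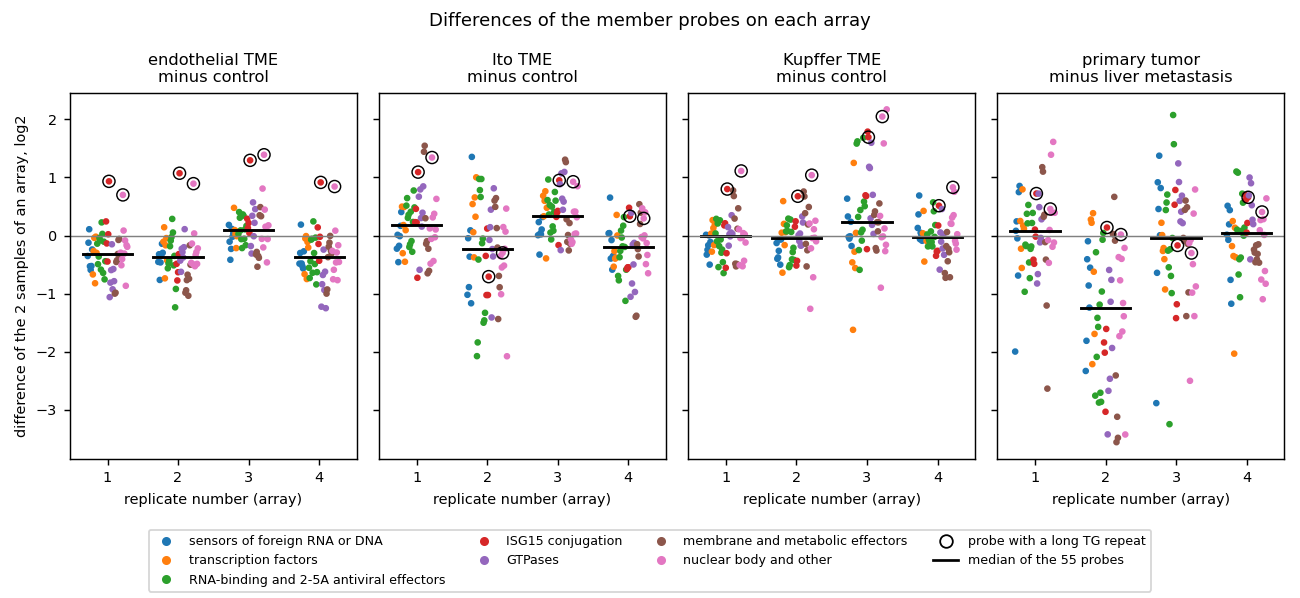
Difference of the 2 samples of each array (y axis, log2) for the 55 probes, by comparison (panels) and replicate number (x axis). Points are probes colored by role, black lines their median, and circles the Trim25 and Sp110 probes with a long TG repeat. The endothelial medians are -0.32, -0.38, 0.09 and -0.37, and the second tumor array stands alone at -1.24.

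In Ito cells no probe was called in either direction with all samples (1 higher and 0 lower at an unadjusted p below 0.05, and 0 by the methods' t-test), against 0.269% higher and 0.0198% lower of all probes. The median difference was -0.03, and the array medians were 0.18, -0.23, 0.33 and -0.20. For 36 of the 55 probes the 95% interval lay within 2-fold. The largest falls were those of Rsad2, at 17.99, 17.87, 17.86 and 17.25 in IC and 17.34, 16.43, 17.60 and 17.79 in IT (-0.45, SE 0.45, adjusted p = 0.809). Ifit1, which binds foreign RNA, measured 15.81, 15.90, 15.72 and 16.18 in IC and 16.32, 13.83, 16.33 and 15.48 in IT (-0.41, SE 0.49, adjusted p = 0.868), and Zbp1, a sensor of Z-form nucleic acid, 15.02, 14.995, 14.83 and 15.50 in IC and 15.19, 13.83, 14.94 and 14.92 in IT at probe A_55_P1994042 (-0.37, SE 0.28, adjusted p = 0.693). IT replicate 2 was the lowest sample for all of these, and for Ifit1 the difference without the second array was 0.14. Ifitm1 probe A_55_P2087265 measured 12.13, 11.86, 12.09 and 13.73 in IC and 13.58, 12.47, 13.40 and 12.33 in IT (0.49, SE 0.37, adjusted p = 0.701). The IC samples 1 to 3 lay below the IT samples 1 to 3, and on the fourth array the sample labelled control was the higher one. Without the fourth arrays, Ifitm1 was up-regulated in IT by 1.12 (adjusted p = 0.046) and 1.10 (adjusted p = 0.0468) at its 2 probes and no other of the 55 was called, against 3.69% higher and 3.97% lower of all probes. The median over the 55 probes was then 0.03.

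In Kupffer cells 1 probe was up-regulated and 0 down-regulated (2 and 0 at an unadjusted p below 0.05), against 0.372% and 0.0647% of all probes, and the methods' t-test called 0. The median difference was 0.05, the array medians -0.01, -0.05, 0.23 and -0.02, and 33 of the 55 intervals lay within 2-fold. The called probe was a repeat probe of Sp110 described below. Ifi44, a cytoplasmic protein of little-known function, measured 15.63, 15.68, 13.61 and 15.64 in KC and 15.51, 15.58, 15.78 and 15.66 in KT (0.49, SE 0.57, adjusted p = 0.946), and the third array alone set its sign, since the difference without it was -0.066. The largest falls were Sp100 probe A_55_P2184493 of a nuclear body protein, at 6.69, 7.21, 7.14 and 6.03 in KC and 6.18, 5.95, 6.24 and 6.23 in KT (-0.62, SE 0.36, adjusted p = 0.765), and Irf1 probe A_55_P2000067, at 5.24, 5.93, 5.86 and 4.78 in KC and 4.96, 5.29, 4.24 and 5.20 in KT (-0.53, SE 0.42, adjusted p = 0.874). The groups overlapped at both. Oas1a probe A_55_P1998943 was lower in every KT sample, at 17.90, 17.87, 17.98 and 17.68 in KC and 17.35, 17.33, 17.39 and 17.50 in KT (-0.46, SE 0.23, adjusted p = 0.689), and turned to 0.16 under loess normalization of the 2 channels. Without the fourth arrays the repeat probes of Sp110 and Trim25 were the 2 called, against 1.75% higher and 2.1% lower of all probes.

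Whether the TME change itself differed between the cell types was tested as a contrast of contrasts. With all samples no probe of the list was called in any of the 3 contrasts, where 0.111% (Ito against endothelial), 0.0808% (Kupffer against endothelial) and 0.00359% (Kupffer against Ito) of all probes were. At an unadjusted p below 0.05, 3, 3 and 1 were higher and none lower, and the smallest adjusted p values were 0.276, 0.939 and 0.995. Without the fourth arrays 3 probes differed between Ito and endothelial cells, against 0.893% higher and 0.779% lower of all probes. These were Ifitm1, by 1.95 (adjusted p = 0.0247) and 1.89 (adjusted p = 0.0283), and Ifitm2, by 0.94 (adjusted p = 0.0342), against 1.32 (adjusted p = 0.949), 1.27 (adjusted p = 0.998) and 0.80 (adjusted p = 0.276) with all samples.

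The up-regulated probes in the TME comparisons were both built on a simple repeat. Probe A_55_P2066792, assigned to Sp110, a nuclear body protein linked to resistance to intracellular bacteria, carries 18 consecutive TG units, and probe A_55_P2098076, assigned to Trim25, the ubiquitin ligase that activates RIG-I, carries 15. They are shown beside the other probes of the same genes as windows of 30 bases, 5′ to 3′ (bases 26 to 55 for A_55_P2098076 and 1 to 30 for the others), with the repeat in capitals.
Sp110 probe A_55_P2066792: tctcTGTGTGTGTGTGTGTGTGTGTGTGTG
Sp110 probe A_55_P2037235: atataaatgaaggtgaacatcgcctatgcc
Sp110 probe A_55_P2152566: atggcaaagtgcatgaatactagacagtaa
Trim25 probe A_55_P2098076: tgttTGTGTGTGTGTGTGTGTGTGTGTGTG
Trim25 probe A_55_P2098071: gagacccatctagaccttgccctgtttgtg

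The TG probe of Sp110 (chr1:87473677-87473736, mm9, minus strand) measured 16.80, 16.64, 16.14 and 16.79 in EC and 17.50, 17.53, 17.53 and 17.64 in ET (0.96, SE 0.23, adjusted p = 0.033), and 17.40, 17.53, 16.31 and 17.58 in KC and 18.51, 18.57, 18.35 and 18.41 in KT (1.26, SE 0.23, adjusted p = 0.00492). In Ito cells it measured 17.10, 17.83, 17.29 and 17.90 in IC and 18.45, 17.53, 18.22 and 18.20 in IT (0.57, SE 0.23, adjusted p = 0.417). The ET and KT samples lay above all their controls, and the Ito groups overlapped. The TG probe of Trim25 measured 15.09, 14.95, 14.78 and 15.17 in EC and 16.02, 16.02, 16.08 and 16.08 in ET (1.05, SE 0.25, adjusted p = 0.0342), 16.93, 17.11, 15.93 and 17.14 in KC and 17.73, 17.78, 17.62 and 17.65 in KT (0.92, SE 0.25, adjusted p = 0.159). It was also higher in IC (16.34, 16.70, 16.33 and 17.05) than in EC by 1.61 (SE 0.25, adjusted p = 9.8e-05), and in TP minus TM differed by 0.34 (SE 0.25, adjusted p = 0.575), at 12.87, 13.35, 13.42 and 12.98 in TM and 13.59, 13.48, 13.25 and 13.63 in TP. On the fourth Ito and Kupffer arrays, where Ifng went against the labels, both TG probes were still higher in the Cy5 sample. The Sp110 probe read 18.20 against 17.90 (Ito) and 18.41 against 17.58 (Kupffer). The Trim25 probe read 17.38 against 17.05 and 17.65 against 17.14. A dye difference and a TME difference cannot be told apart here. The probes without the repeat were called in no TME comparison. In ET minus EC, Sp110 probes A_55_P2037235 and A_55_P2152566 differed by -0.42 and 0.16 and Trim25 probe A_55_P2098071 by -0.07. Sp110 probe A_55_P2152566 was nonetheless higher on all 4 arrays in ET and in IT. Its IT samples all lay above its IC samples (0.22, SE 0.26, adjusted p = 0.869), for which no share over all probes was computed. The lowest IT and the highest IC sample, at 14.4238 and 14.4214, were both on the fourth array and nearly equal.

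The array holds 49 probes with at least 10 consecutive TG units, assigned to genes of many kinds. Of these, 34 were up-regulated in ET (median difference 0.96), 25 in KT (1.00) and 0 in IT (0.47) or TP (0.26), and of the 47 assigned to other genes 32 and 24 rose in ET and KT. The Trim25 probe ranked 5 and the Sp110 probe 24 of 49 by their ET minus EC difference, and 31 and 4 by KT minus KC. The 49 probes shared more than the TME difference: all 49 were higher in IC than in EC (median 1.41), and all were lower in TM than in KC (-3.19) and in TP than in KT (-4.01). The 2 probes share a run of 31 bases. These counts were made after seeing the data, and which transcripts the repeat probes bound was not tested. With the EC pairs averaged, the Sp110 and Trim25 probes had adjusted p values of 0.248 and 0.293 in ET minus EC.

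**Figure D5:**
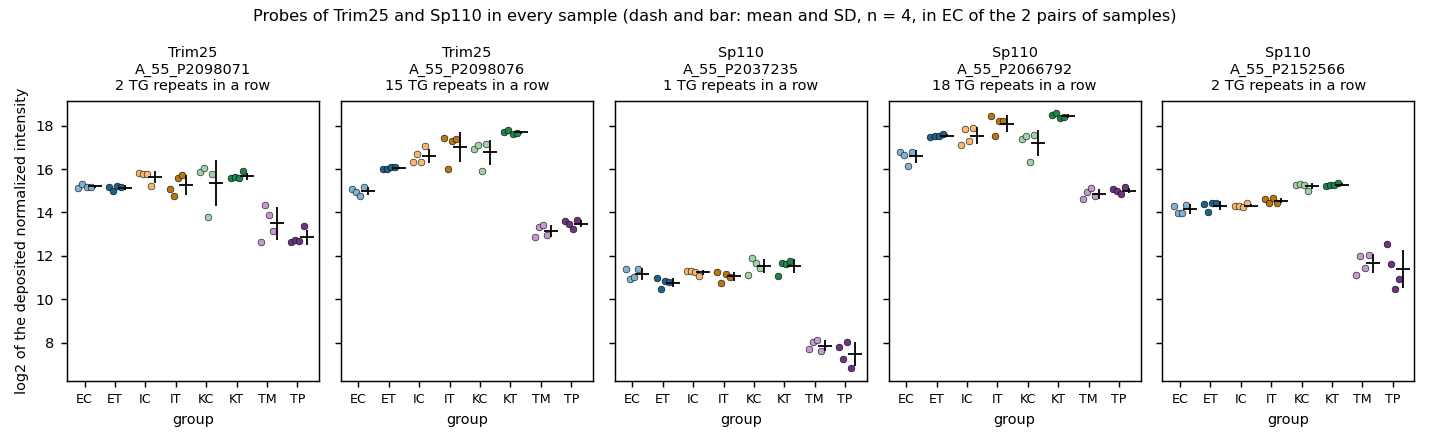
Level (y axis, log2 of the deposited normalized intensity) of the 2 Trim25 and 3 Sp110 probes in each sample, by group (x axis); the number of consecutive TG units stands over each panel. Points are samples, dashes and bars the mean and SD (n = 4; in EC of the 2 averaged pairs). ET and KT lie above EC and KC at the probes with 15 and 18 units, and not at the probes with 1 or 2.

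Other genes of the pathway were read from 3 lists, ordered from ligands to targets. The 27 probes of interferons and their receptors (21 of 28 listed genes found) gave no call in any TME comparison or in TP minus TM, with 1 probe higher and 1 lower at an unadjusted p below 0.05 in ET minus EC. Interferon beta, Ifnb1, the first type I interferon that a cell makes, measured 10.36, 10.27, 10.20 and 10.41 in EC, 11.44, 11.22, 11.49 and 12.95 in IC and 12.73, 12.77, 11.69 and 14.20 in KC, and exceeded EC in KC by 2.54 (SE 0.74, adjusted p = 0.0137). In the TME samples Ifnb1 measured 11.75, 9.51, 11.32 and 11.59 in ET, 12.88, 11.95, 12.68 and 11.32 in IT and 14.21, 14.15, 14.05 and 12.58 in KT. The control and TME samples overlapped in every cell type. In the tumors it was above background in 1 of 4 TM samples and 0 of 4 TP samples. It was down-regulated in TM minus KC by a fitted 8.94 (adjusted p = 8.43e-11), which is no measured size. KT exceeded TP at least 117-fold (adjusted p = 2.48e-12). Down-regulation in the tumors was called for 12 and 13 of the 27 probes (16.2% and 17.8% of all probes), the receptor chains Ifnar1 and Ifnar2 among them (Ifnar2 by -2.75 and -3.32), and up-regulation for 0. Without the fourth arrays 6 of the 136 probes of the 3 lists were higher and 0 lower in IT (3.69% and 3.97% of all probes), and 3 higher and 1 lower in KT (1.75% and 2.1%). Ifng was up-regulated in both (adjusted p = 3.34e-06 and 0.00619). No size is given, because its control samples, the left-out replicate 4 included, were above background in only 1 of 4 (IC) and 2 of 4 (KC). That replicate held the highest control level of Ifng in both cell types. The receptor chains Il10rb in IT (0.61, adjusted p = 0.0449) and Ifnar2 in KT (0.93, adjusted p = 0.0249) were higher, as was Mavs, the mitochondrial adaptor of the RNA sensors, in IT (0.34, adjusted p = 0.037) and KT (0.49, adjusted p = 0.00715). Of the further interferon-stimulated genes Ifitm6 (1.87), Oas1c (0.94) and Psmb9 probe A_51_P369803 (0.97) were higher in IT, Cxcl11 probe A_55_P2160387 was lower in KT (-0.88), and Ifnb1 was not called (1.12, adjusted p = 0.499, and 1.74, adjusted p = 0.287).

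Of the 23 signalling probes (17 of 18 genes), Jak1, the kinase bound to the receptors, was down-regulated in ET, at 13.69, 13.42, 13.67 and 13.55 against 14.48, 14.64, 14.62 and 14.39 in EC (-0.95, SE 0.14, adjusted p = 0.000302). It was the only call of the list in a TME comparison with all samples. Against Kupffer cells 17 signalling probes were lower and 2 higher in TM (16.2% and 23.3% of all probes), and 18 and 1 in TP (17.8% and 25.7%). Of 86 probes of further interferon-stimulated genes (52 of 56 genes), 81 were lower in TM and 80 in TP than in Kupffer cells and none higher, against the same shares of all probes. In ET, 72 of the 86 lay below the EC mean, with a median of -0.28, while 28890 of all 55681 probes lay above it. This count uses the same EC samples as the shift described above. Calls in ET were Parp9 probe A_55_P2142863, lower by 0.74 (-0.74, SE 0.18, adjusted p = 0.0342), and Ifitm7 probe A_55_P2097161, higher by 0.97 (adjusted p = 0.0347), which carries a TG run like the Trim25 and Sp110 probes. Dtx3l, the ubiquitin ligase partner of Parp9, was lower in TP than in TM at probe A_55_P2174541 (-1.03, SE 0.21, adjusted p = 0.00686, 2 of 4 TP samples above background). In KC, 23 of the 86 were higher and 7 lower than in EC (8.95% and 12.1% of all probes), and 19 higher and 1 lower than in IC (7.24% and 7.57%).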

How the data were processed

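Each array was read by 2-colour scanning with Agilent Feature Extraction 10.7.3.1, and the authors deposited a table of intensity values, quantile-normalized per the study's methods, in which each colour channel has a column. Its values were taken as linear intensity and log2-transformed. Controls and outlier spots were left out of the scanner files, which also gave, for each probe, whether it stood above background. Probe positions are those of the array design (mm9).

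One limma 3.58.1 model of 8 group means was fitted to all 55681 probes in R 4.3.3 (data.table, version 1.17.8), with Benjamini-Hochberg adjustment over all of them and a threshold of 0.05. Exact permutation tests were two-sided, and 4 samples against 4 cannot give a p under 0.0286. The fit was tested on simulated data. Figures were drawn with Python 3.11.15 and matplotlib 3.10.9.

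All probes of the 40 genes were kept. The members, roles and lists were chosen with earlier results of these data known. Values in every sample are given for probes called in a TME or tumor comparison and for the 3 largest rises and falls of each comparison, Ifitm3, Ddx58 and the tumor against Kupffer genes being named after their values were seen. The study states biological replicates, and the labels do not tie samples to mice.

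Alternatives were the scanner's processed signals, normexp (offset 50) with quantile or with loess, 75th percentile scaling, a filter on dim probes (29013 kept), the array as a fixed or random block, fits of the compared groups alone, the methods' t-test, stricter thresholds, 1 probe per gene and leaving out each replicate. Same-numbered samples share an array. The correlation of their deviations ran from -0.64 to 0.40 over the 16 arrays, so the main model has no block. A result of the signalling list is not reported here.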

Additional observations from a re-analysis of the deposited data

Results flagged for a closer look

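In 94 groups of 4 samples, 12 had a sample far from the others by Dixon's criterion, which chance alone gives for about 1 group in 20. The mean over the 55 probes was set apart by ET replicate 2 at 13.76 (others 14.15 to 14.19) and by KC replicate 3 at 14.19 (others 14.62 to 14.65). KC replicate 3 was also far from its group for Ifi44 at 13.61 and for the TG-repeat probe of Sp110 at 16.31.

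The fourth Ito and Kupffer arrays, whose samples went against their labels, gave 6 more. In the sample labelled IC replicate 4, Ifitm1 measured 13.71 at probe A_55_P2146254 and 13.73 at probe A_55_P2087265, and Isg20 measured 16.19 at probe A_55_P2173892. In the sample labelled KT replicate 4, Ifitm1 measured 10.39 and 10.50 at the same probes, and in the sample labelled KC replicate 4, Cmpk2 measured 16.49 at probe A_52_P186937.

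In the tumor groups, Isg20 probe A_55_P2173892 read 9.88 in TM replicate 3 and Rsad2 read 7.84 in TP replicate 3. What set these samples apart was not tested.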

How the results depend on the processing

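The tumor against Kupffer counts (52 and 54 probes) changed little under every alternative run: 51 to 55 of the 55 probes were called, and 39 and 40 with 1 probe per gene. The median over the 55 probes moved by less than 1 SD between replicates in 126 of 126 recomputed values, although without a replicate its sign turned in TP minus TM (0.06 without replicate 2), IT minus IC (0.09 and 0.03 without replicates 2 and 4), KT minus KC (-0.016 without replicate 3) and IC minus EC (-0.02 without replicate 2, -0.017 without Ito and Kupffer replicate 4, and also below 0 without replicate 3). The block, groups-alone and t-test settings leave every difference unchanged. Leaving out 1 replicate moves a mean by only part of the SD, so staying within 1 SD was largely fixed beforehand. Single named probes kept direction and side in 622 of 715, with 62 weaker, 28 stronger and 3 reversed. In the settings that leave the differences unchanged, only the side of the threshold could move. The 3 reversed probes were Oas1a in Kupffer cells under loess (0.16), Ifit1 in Ito cells without replicate 2 (0.14, and down to -0.75 without replicate 3) and Ifi44 in Kupffer cells without replicate 3 (-0.066, and up to 0.70 without replicate 1).

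ET minus EC gave 2 called probes. It gave 4 with the scanner's processed signals, with the endothelial groups alone and by the methods' t-test, 1 at 2-fold and with 1 probe per gene, and 0 under 75th percentile scaling, at 4-fold with adjusted p under 0.001, without the TG-repeat probes and with the EC pairs averaged. KT minus KC gave 1, then 2 under loess, under 75th percentile scaling and without Ito and Kupffer replicate 4, and 0 with the 2 groups alone, by the t-test, at 4-fold, with 1 probe per gene and without the TG-repeat probes. IT minus IC gave 0, and 2 without Ito and Kupffer replicate 4, which also gave 3 differences of change in place of 0. TP minus TM gave 2, then 1 under 75th percentile scaling and the filter on dim probes, and 0 under both normexp settings, with the 2 groups alone, by the t-test and at 4-fold.

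IC minus EC gave 5, then 12 with the 2 groups alone, 9 by the t-test, 7 without Ito and Kupffer replicate 4, 3 at 2-fold and without the TG-repeat probes, 2 with the EC pairs averaged and 0 at 4-fold. KC minus EC gave 12, then 20 with the 2 groups alone, 19 by the t-test and under the filter on dim probes and 2 at 4-fold. KC minus IC gave 10, then 16 with the 2 groups alone, 5 at 2-fold and without Ito and Kupffer replicate 4, and 0 at 4-fold.

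With the array as a replicate block, ET minus EC gave 0 calls as a fixed and as a random block (consensus correlation -0.117), and TP minus TM gave 1 as a random block. Leaving out each replicate number in turn gave 0 to 1 calls in each TME comparison, 0 to 4 in TP minus TM (0 without replicate 2 and without replicate 3, 4 without replicate 1), 3 to 4 in IC minus EC, 11 to 13 in KC minus EC, 2 to 5 in KC minus IC, 52 to 53 in TM minus KC, 53 to 55 in TP minus KT and 0 to 1 in the differences of change. The cause of these changes was not tested. Scaling to the 75th percentile brought the median of all probes, -0.01 to 0.10 before, to 0.11 in TP minus TM, 0.29 in IC minus EC, 0.18 in KC minus EC, -0.19 in KC minus IC, 0.50 in TM minus KC and 0.61 in TP minus KT. Signal over background limits the tumor groups most, and the number of arrays limits the precision throughout.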
